A study of Mus musculus with 18 samples.

Results

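The regions described here are the stretches of mouse hippocampal mRNA in which N4-acetylcytidine (ac4C) peaks were listed under the exon that holds the stop codon. Of the 52494 ac4C peaks listed over 6 mice, 9618 carried this label. Peaks sharing 1 bp or more on one chromosome and strand were merged across mice, which gave 3717 regions on 3343 genes, out of 20211 regions when peaks of all 5 exon labels were merged in the same way, label by label. A further region was present on 323 of these genes, and 5 regions held peaks listed under more than 1 gene. Whole hippocampi came from 6-month-old mice, 3 wild-type (WT) and 3 5×FAD, and each mouse gave an anti-ac4C capture, an input and an IgG control library, 18 in all. 5×FAD mice carry human transgenes with familial Alzheimer disease mutations, APP among them, under the neuronal Thy1 promoter and develop amyloid deposits, so that the transgenes are confined largely to neurons. The labels give no sex for these mice.

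ac4C is an acetylated cytidine that the acetyltransferase NAT10 writes on rRNA, tRNA and, by antibody capture, on mRNA. In mRNA it is known to affect stability and translation, and cytidines in a C-N-N repeat have been described as its preferred setting. The exon with the stop codon is usually the last exon of an mRNA and holds the end of the coding sequence followed by the 3′ UTR, where many RNA-binding proteins and microRNAs act. Fold enrichment below is the deposited ratio of captured signal to input of a peak. A value of 0 means that no stop codon exon peak was listed in that mouse, not that no signal was present.

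To show the places that the strongest signals surround, the 30 bases around the stop codon are given for 8 of the 10 regions with the highest mean fold enrichment among those found in all 6 mice. The sequence is that of the GRCm38 (mm10) genome on the mRNA strand, 5′ to 3′, not cut at exon ends, and capitals mark the stop codon. The exon of Reep6 has 5 bases before the stop codon, and that of Sobp has 11 after it. Bases of their windows beyond these lie outside the exon.
Syn1: agcctcttctccgacTGAcatcccactctg
Sobp: agaaaccagaataagTAAaaaaataaaagg
Reep6: ctctccacagccaagTAAagtcagacccca
Mink1: tgcatcatgaactggTGAcgaggcccctgg
Rere: ggtgacaagcagttaTAAgttatttatttg
Prrt1: aactactgggatcccTAAaaacgtccccat
Gfra2: gtgaccttggcccagTAGgcctttggaacc
Unc5a: tcagaggccgagtgcTGAgaccagccaggc
Each window has 15 bases before the stop codon and 12 after it, and the 8 windows held between 2 and 13 cytosines. The windows of Sobp, a nuclear zinc finger protein, and of Rere, a transcriptional corepressor, held 2 cytosines each, and that of Syn1 held 13. The other 2 of the 10 regions, on Fkbp1a and Myrf, contained no annotated stop codon.

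The label was checked against the GENCODE M21 and RefSeq annotations of mm10. An annotated stop codon of the same gene lay inside 2932 of the 3717 regions (78.88%), and in 97.54% of these the stop codon was in the last exon. The remaining 785 regions held none of their own gene. Of these, 469 (59.7%) lay within an exon of a transcript that GENCODE classes as a retained intron, and 618 (78.7%) were listed under a UCSC transcript identifier, against 7.47% of the regions with a stop codon. They were shorter, with a median length of 643 bp against 1196.0 bp, and held a median of 25.4% cytosine against 27.6%. They were found in all 6 mice in 6.11% of cases, against 9% of the regions with a stop codon. Between 78.24% and 81.84% of the stop codon exon peaks of a mouse fell in regions with an annotated stop codon. The median fold enrichment of those peaks was higher than that of the other peaks in 6 of 6 mice, by a mean factor of 1.10 (exact sign-flip permutation p = 0.03125, two-sided, the smallest that 6 mice allow). The label therefore stands for an annotated stop codon in about 4 of 5 regions, and the counts below cover all of them unless stated.

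Where a stop codon was annotated, the region covered a median of 215 bases before it (quartiles 120 and 567.5) and 719 bases after it (quartiles 364 and 1364.8). A median of 73.42% of the region thus lay after the stop codon. The whole coding sequence lay in the exon in 305 of 2932 regions (10.4%). The upstream end of a peak coincided with the edge of an annotated stop codon exon in 76.23% of peaks and the downstream end in 37.66%, so a peak is placed to the exon more than to the base. Median peak lengths were 942.5 to 1033.5 bp per mouse, against 162 to 169 bp for peaks of internal coding exons.

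**Figure D1:**
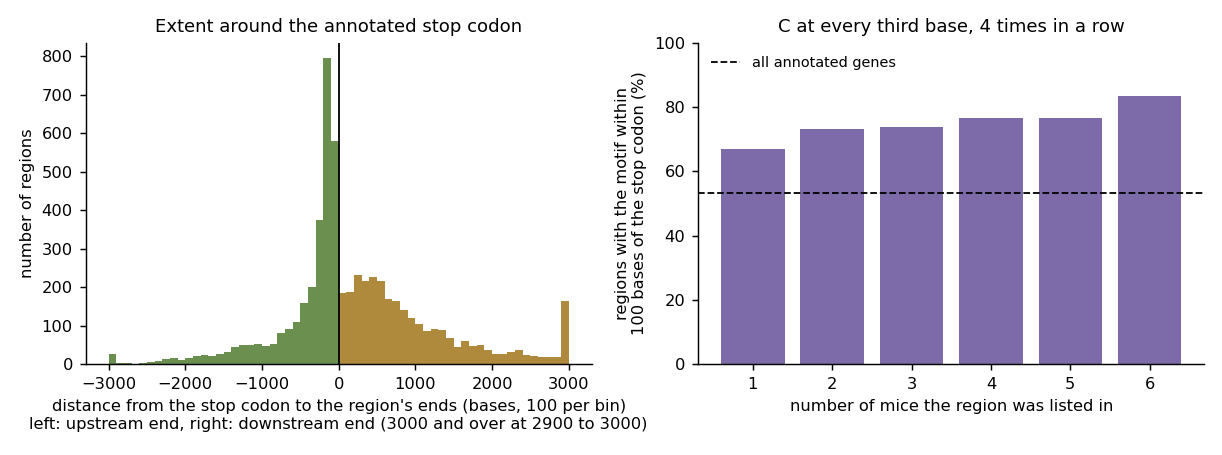
Left, distance in bases from the annotated stop codon to the upstream end (green) and the downstream end (brown) of 2932 regions, as numbers of regions per bin of 100 bases. Right, percent of regions with C followed by any 2 bases, repeated 4 times, within 100 bases of the stop codon, by the number of mice a region was listed in, from 66.84% in 1 mouse to 83.33% in 6, with the share over all annotated genes (53.17%) as a dashed line.

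Stop codon surroundings in these regions were rich in cytosine. Within 100 bases on each side of the stop codon the median cytosine content was 29.56%, against 24.63% over 21622 annotated genes. These windows are genomic sequence not cut at exon ends, so some reach beyond the exon. C followed by any 2 bases, repeated 4 times on the mRNA strand, occurred in these windows in 72.78% of 2932 regions and in 53.17% of all genes. It was found within 100 bases before the stop codon in 53.96% of regions and 36.88% of genes, and within 100 bases after it in 45.26% and 29.26%. The 2613 regions with at least 50 bases on both sides held a median of 30.43% cytosine in the coding part and 25.77% after the stop codon, and the coding part was the richer one in 1945 of them (74.44%). The repeat was present in 66.84% of regions listed in 1 mouse, 73.28%, 73.79%, 76.53% and 76.47% of those in 2, 3, 4 and 5 mice, and 83.33% of those in 6. It was not particular to this label. Within the first 200 bases of regions at least that long, 75.41% of stop codon exon regions held it. For internal coding, start codon, 5′ UTR and 3′ UTR exon regions the shares were 76.94%, 84.16%, 79.6% and 40.75%. The stop codon was TGA in 52.18%, TAA in 22.41% and TAG in 25.41% of regions, against 49.32%, 27.89% and 22.8% of all genes. These shares describe sequence only, and all genes include those that the hippocampus does not express.

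Taken over whole peaks, the cytosine content stood between that of the other labels. Its median averaged 28.5% ± 0.168 over the WT mice and 27.9% ± 0.749 over the 5×FAD mice (SD, n = 3 per genotype, exact permutation p = 0.3). Within each mouse its mean difference was -4.84 points from start codon exon peaks and -4.05 points from 5′ UTR exon peaks, lower in 6 of 6 mice each, and 3.12 points from 3′ UTR exon peaks, higher in 6 of 6 (exact sign-flip p = 0.03125 each, 0.04167 after Benjamini-Hochberg adjustment over 4 labels). Against internal coding exon peaks it was lower in 5 of 6 mice, with a mean difference of -0.52 points (exact sign-flip p = 0.0625, adjusted 0.0625). In regions with an annotated stop codon, the 100 bases each side of it were richer in cytosine than internal coding exon peaks by 1.66 points. This held in 6 of 6 mice (exact sign-flip p = 0.03125). Here both the window and the set of peaks differ from the -0.52 comparison, which took all stop codon exon peaks. All these contents were read from the reference genome, over peaks that mice share in part. The sign-flip p-values therefore do not rest on 6 independent measurements. Exons of each label without a peak were not compared.

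5×FAD mouse 3 stood apart from the other mice before any comparison. The median fold enrichment of its stop codon exon peaks was 13.64, the lowest was 4.51 against 2.17 to 3 elsewhere, and 1252 of its 1719 peaks were listed at a false discovery rate of 100%. The median false discovery rate of stop codon exon peaks was 33.73% to 61.15% in the other mice, and 1 such peak over all 6 mice was listed under 5%. Its fold enrichments in shared regions had a Spearman correlation of 0.607 to 0.632 with the other mice, which correlated with each other at 0.768 to 0.852 (661 to 1221 shared regions per pair, described without a test). Comparisons of fold enrichment are therefore also given on one scale, for which each mouse's values were multiplied by a factor that brought the mRNAs detected in all 6 mice to a common median. The peak tables show which genes carry a listed peak and not how strongly a gene is expressed. Over all genes, 4268 to 4589 mRNAs carried a peak of any label in a WT mouse and 4407 to 5133 in a 5×FAD mouse. Of 7 hippocampal neuron markers, 1 to 3 carried a peak of any label in a WT mouse and 3 to 5 in a 5×FAD mouse. Of 34 microglial and immune genes, 6 to 12 carried a peak of any label in a WT mouse and 18 to 22 in a 5×FAD mouse, and the sum of their fold enrichments was 70.8 to 118.1 in WT and 466.1 to 677.9 in 5×FAD. For astrocyte, oligodendrocyte and vascular lists of 16, 22 and 19 genes, 4 to 7, 9 to 12 and 8 carried a peak in a WT mouse and 6 to 9, 7 to 10 and 8 to 10 in a 5×FAD mouse. Their summed fold enrichments were also higher in 5×FAD without overlap, at 86.2 to 146.2 against 156.5 to 278.6, 217.2 to 305.4 against 342.7 to 387.9, and 119.3 to 175.2 against 278.9 to 327.2. The sums of the hippocampal neuron list overlapped, at 60.6 to 79.1 in WT and 78.9 to 133.1 in 5×FAD. All these sums are as deposited and not on one scale.

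The regions with the highest fold enrichment in all 6 mice included genes of synapses, axon guidance and transcription. Syn1 encodes synapsin I, which tethers synaptic vesicles, and its region at chrX:20860511-20861609 reached 64.4, 40.98 and 34.69 in WT mice 1 to 3 and 78.33, 58.52 and 187.69 in 5×FAD mice 1 to 3. The genotypes overlapped, and 5×FAD mouse 3 was by far the highest (log2 difference 1.06 ± 0.61 SE, limma adjusted p = 0.9995). Sobp had fold enrichments of 61.31, 56.36 and 35.8 in WT mice, against 69.78, 68.08 and 150.2 in 5×FAD mice. Nearly the whole of its region lay before the stop codon, with 1923 bases of coding sequence and 11 bases after it. Reep6, a membrane protein that shapes the endoplasmic reticulum, had the opposite layout, with 5 bases before the stop codon and 1324 after it. Its values were 56.3, 56.16 and 41.28 in WT and 61.24, 60.76 and 108.33 in 5×FAD. The kinase Mink1 had the tightest 5×FAD values of the first 4, at 78.03, 73.06 and 66.9, against 59.84, 51.45 and 43.97 in WT. In Sobp, Reep6 and Mink1 the lowest 5×FAD value exceeded the highest WT value as deposited, and on one scale the log2 differences were 0.23, -0.07 and -0.11.

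Not every strong region followed that order. As deposited, the genotypes overlapped in Rere, Fkbp1a and Unc5a, while in Prrt1, Gfra2 and Myrf every 5×FAD mouse was above every WT mouse. On one scale the log2 differences of Prrt1, Gfra2 and Myrf were 0.24, -0.01 and 0.28. Rere reached 56.1, 52.22 and 46.23 in WT and 68.34, 63.48 and 28.98 in 5×FAD, so that 5×FAD mouse 3 was the lowest of all. Fkbp1a, the immunophilin that binds ryanodine receptors, had fold enrichments of 51.59, 43.27 and 40.73 in WT mice, against 74.91, 56.54 and 37.04 in 5×FAD mice, again with 5×FAD mouse 3 lowest. The Fkbp1a region at chr2:151542818-151544677 lay in an exon of a retained intron transcript. Prrt1, a membrane protein of AMPA receptor complexes, had fold enrichments of 41.42, 39.07 and 28.9 in WT mice, against 60.58, 47.57 and 96.74 in 5×FAD mice. Gfra2, the receptor for the growth factor neurturin, stood at 30.77, 40.28 and 28.7 against 50.37, 47.38 and 52.19, and Unc5a, a netrin receptor, at 39.19, 33.44 and 24.43 against 38.43, 32.55 and 60.59. For Myrf, the transcription factor of myelin formation, the strong region at chr19:10227620-10228916 (31.26, 29.74 and 23.7 in WT, 47.88, 39.88 and 75.18 in 5×FAD) lay in a retained intron exon. The region of Myrf that held its annotated stop codon was listed in 5×FAD mice 1 and 2 only, at 4.65 and 8.02. Over the 312 regions listed in all 6 mice (8.39%, against 8.47% of all 20211 regions), the mean fold enrichment of a region ran from 4.49 to 77.4 with a median of 11.4. It was almost unrelated to cytosine content (Spearman 0.16) and length (Spearman 0.07, 312 regions of the same 6 mice, described without a test).

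**Figure D2:**
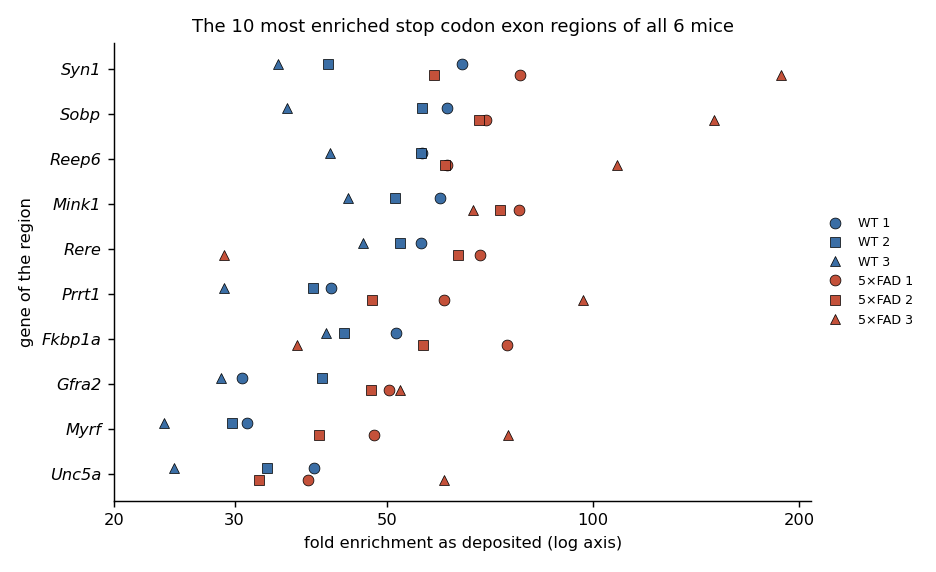
Fold enrichment as deposited (log axis) of the 10 stop codon exon regions with the highest mean among those listed in all 6 mice, 1 row per gene, WT mice in blue above 5×FAD mice in red, with a symbol per replicate number. Syn1 runs from 34.69 to 187.69, and 5×FAD mouse 3 (red triangle) is the highest point for Syn1, Sobp, Reep6, Prrt1, Gfra2, Myrf and Unc5a and the lowest for Rere and Fkbp1a.

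Within each mouse, stop codon exon peaks were slightly more enriched than peaks of internal coding exons. The ratio of the medians was 1.129, 1.12 and 1.134 in WT and 1.118, 1.132 and 1.089 in 5×FAD, with a mean of 1.12 (higher in 6 of 6 mice, exact sign-flip p = 0.03125, adjusted over 4 labels 0.04167). The ratio to 3′ UTR exon peaks was 1.09, higher in 6 of 6 mice, and that to 5′ UTR exon peaks was 0.957, lower in 6 of 6 (exact sign-flip p = 0.03125 each, adjusted 0.04167). Against start codon exon peaks the ratio was also 0.957, but 1 mouse, 5×FAD mouse 3, had the opposite order (exact sign-flip p = 0.0625, adjusted 0.0625). The ratio to internal coding exon peaks averaged 1.13 ± 0.00697 over the WT mice and 1.11 ± 0.0220 over the 5×FAD mice (SD, n = 3 per genotype, exact permutation p = 0.4). With regions that held an annotated stop codon alone it was 1.14, higher in 6 of 6 mice. Leaving out any mouse leaves 5, for which the smallest possible p is 0.0625. As in every sign-flip test here, the 6 mice were taken as independent. Same-numbered mice shared many regions, as given below, so these p-values may be too small. Stop codon exon peaks were also much longer than internal coding exon peaks, as given above, and the part of length in the ratio was not tested.

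**Figure D3:**
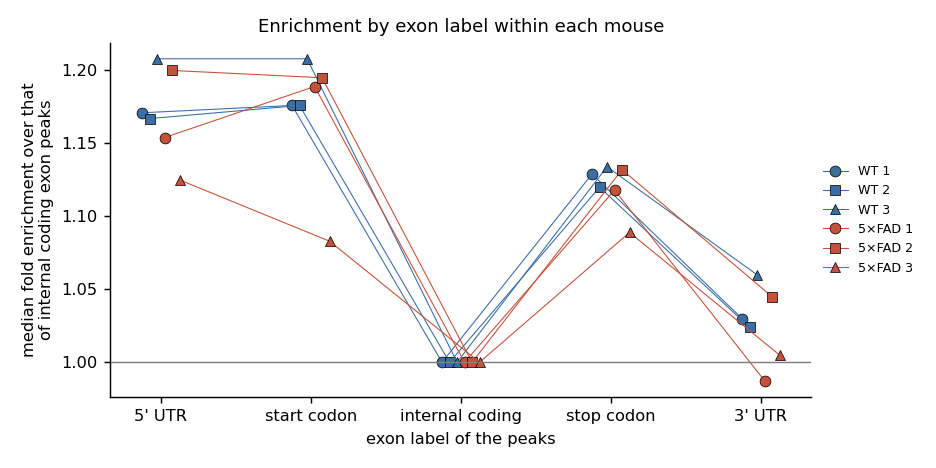
Median fold enrichment of the peaks of each exon label divided by that of internal coding exon peaks of the same mouse, 1 line per mouse, WT in blue and 5×FAD in red. Stop codon exon peaks lie between 1.089 and 1.134 in all 6 mice, and the vertical axis does not start at 0.

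The stop codon exon was often the place of the listed ac4C of an mRNA. In a mouse, 1145 to 1772 mRNAs carried such a peak, which was 29.7% ± 2.53 of the WT mRNAs with any peak and 35.3% ± 1.25 of the 5×FAD ones (SD, n = 3 per genotype, exact permutation p = 0.1). It was the only listed peak of the mRNA in 53.1% ± 2.24 of these mRNAs for WT mice and 48.0% ± 2.82 for 5×FAD mice (exact permutation p = 0.2). Where an internal coding exon peak was also listed, on 346 to 705 mRNAs per mouse, the stop codon exon peak exceeded the highest of them in 44.2% ± 1.28 of mRNAs for WT mice and 46.4% ± 0.961 for 5×FAD mice (exact permutation p = 0.1). A start codon exon peak was also listed on 18.69% to 23.42% of the mRNAs.

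Whether the stop codon exon share differs between genotypes was asked with 12 values per mouse. Stop codon exon peaks numbered 1502, 1444 and 1195 in WT and 1878, 1880 and 1719 in 5×FAD. They made up 17.93%, 18.27% and 16.07% of all peaks in WT and 18.35%, 18.64% and 20.32% in 5×FAD. For both values the genotypes did not overlap, and the 5×FAD mouse was the higher one within each replicate number (exact permutation p = 0.1, the smallest that 3 against 3 mice allow, adjusted over the 12 values 0.2). The difference in share of 1.68 points was 1.00 without WT mouse 3 and 1.07 without 5×FAD mouse 3. The median fold enrichment was 7.585, 7.44 and 7.22 in WT and 8.005, 7.785 and 13.64 in 5×FAD (exact permutation p = 0.1, adjusted 0.2), which differed by 2.40, or by 0.48 with 5×FAD mouse 3 left out. On one scale the direction turned, with 8.53, 8.827 and 10.25 in WT and 6.956, 7.148 and 9.025 in 5×FAD (exact permutation p = 0.3, adjusted 0.4).

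**Figure D4:**
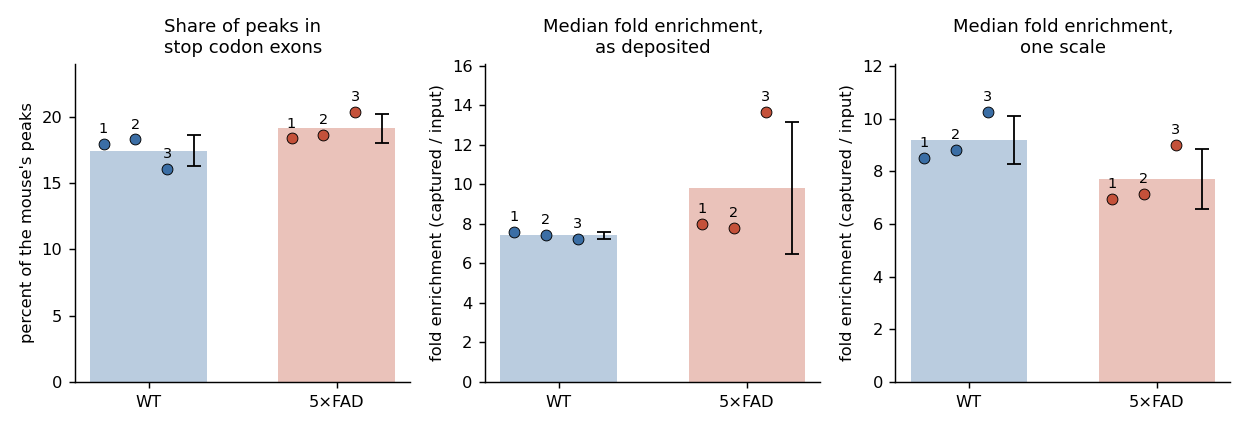
Share of peaks labelled as stop codon exon (percent of the peaks of a mouse) and median fold enrichment of these peaks as deposited and on one scale, with bars for the mean of 3 mice, whiskers for the SD and numbered points for the mice. The share is 16.07% to 18.27% in WT and 18.35% to 20.32% in 5×FAD, and the order of the genotypes in fold enrichment turns between the middle and the right panel.

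Which regions were listed followed the replicate number more than the genotype. Of the 1501 regions of WT mouse 1, 81.35% were also listed in 5×FAD mouse 1, against 52.83% and 44.04% in WT mice 2 and 3. Of those of WT mouse 2, 82.96% were listed in 5×FAD mouse 2, against 54.92% and 46.88% in WT mice 1 and 3. Of those of WT mouse 3, 64.91% were listed in 5×FAD mouse 3, against 55.36% and 56.7% in WT mice 1 and 2. The exception was 5×FAD mouse 3, of whose 1719 regions 45.08% were listed in WT mouse 3 and more, 46.77% and 47.7%, in 5×FAD mice 1 and 2. Among regions listed in exactly 2 mice, the same-numbered pairs accounted for 163, 175 and 115 of 863, while WT mice 1 and 2 alone shared 20 and 5×FAD mice 1 and 2 alone shared 84. Regions listed in 1, 2, 3, 4, 5 and 6 mice numbered 1308, 863, 445, 574, 215 and 312. The labels do not say what a replicate number stands for.

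Several regions showed this pattern in full. Elavl3, a neuronal RNA-binding protein, was listed in mice 1 and 2 at 40.25 and 35.69 in WT mice, against 45.7 and 43.8 in 5×FAD mice, and in neither mouse 3. Sox9, a glial transcription factor, was listed in the mice numbered 1 only, at 57.59 in WT and 96.87 in 5×FAD. Olig2 and Sox10, transcription factors of the oligodendrocyte lineage, were listed in the mice numbered 2 only, at 25.26 and 33.1 in WT mice, against 39.9 and 26.05 in 5×FAD mice. Each of these values was above the median stop codon exon peak of its mouse. What the replicate number carried was not tested.

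**Figure D5:**
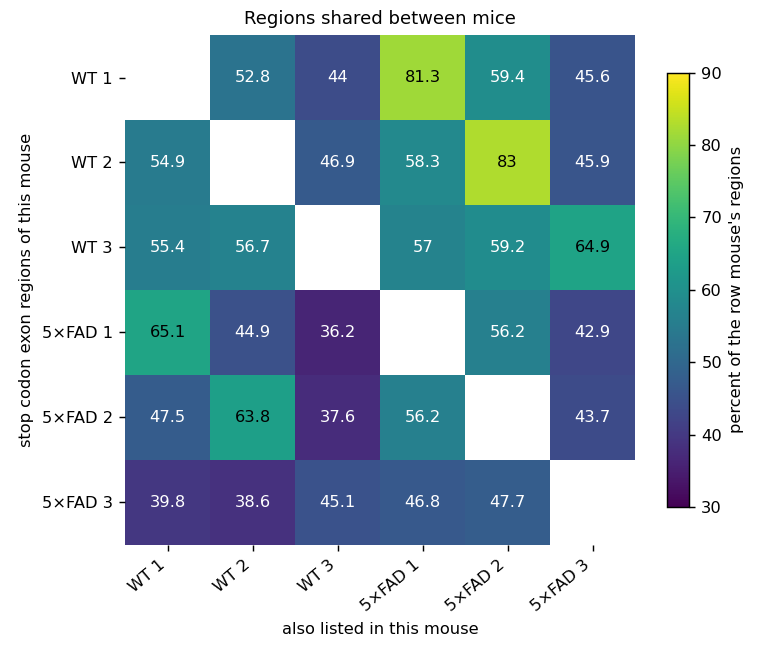
Percent of the stop codon exon regions of each mouse (rows) that were also listed in each other mouse (columns). The highest values are those of WT mouse 1 in 5×FAD mouse 1 (81.35%) and WT mouse 2 in 5×FAD mouse 2 (82.96%), and mice of 1 genotype share less.

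Counting a region for a genotype when at least 2 of its 3 mice had it, 1018 stop codon exon regions belonged to both genotypes, 571 to 5×FAD only and 235 to WT only. These were 27.4%, 15.4% and 6.32% of the 3717 regions, against 27.3%, 14.1% and 8.17% of all 20211 regions. Requiring 3 of 3 mice gave 312, 233 and 127. The excess in 5×FAD shrank to 363 against 294 in WT when the same number of top-scoring peaks was taken from each mouse. Without 5×FAD mouse 1, 2 or 3 the side with more regions changed, with 255, 242 and 322 in 5×FAD only and 688, 691 and 520 in WT only, since a region then had to be in both 5×FAD mice left. Without WT mouse 1, 2 or 3 there were 1013, 1024 and 876 in 5×FAD only and 101, 96 and 80 in WT only.

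Regions listed in all 3 mice of one genotype and none of the other numbered 57 for 5×FAD (1.53%, against 1.19% of all regions) and 5 for WT (0.135%, against 0.237%). With the same number of top-scoring peaks per mouse they were 30 and 9. Of the 57, 47 held an annotated stop codon, as did 3 of the 5. The most enriched of the 57 lay on 1700030K09Rik (31.84, 29.21 and 48.6), Tmem47, a membrane protein of cell junctions (8.59, 9.05 and 79.53), and Macf1, which links microtubules to actin (11.48, 11.86 and 48.79). Sos1, which activates Ras, followed at 14.24, 15.52 and 37.08, Bin2, a membrane-shaping protein of blood-derived cells, at 14.34, 19.24 and 29.5, and R3hdm1 at 8.71, 8.48 and 34.45. In Tmem47, Macf1, Sos1 and R3hdm1, 5×FAD mouse 3 was at least as high as the other 5×FAD mice together. The 5 regions of WT lay on Cherp (11.49, 11.41 and 18.04), Set, a histone chaperone and phosphatase inhibitor (13.02, 12.94 and 14.73), Gm10762 (13.11, 12.97 and 10.72), Aprt, an enzyme of purine salvage (10.54, 11.92 and 13.81), and Dpp6, a partner of potassium channels (7.59, 10.41 and 7.5). The regions of Aprt and Dpp6 lay in retained intron exons. A different Dpp6 region, which held its annotated stop codon, was one of the 57 of 5×FAD, at 6.18, 5.71 and 21.4.

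Cherp and 1700030K09Rik are neighbours whose ends overlap on opposite strands, so their stop codon surroundings are shown on the strand of each mRNA, with the stop codon in capitals.
Cherp: gaagagaaggaagacTGAccacaggcttca
1700030K09Rik: ccacctcggaatcaaTGAcatccatatgga
The region of Cherp at chr8:72460483-72461355 was listed in the 3 WT mice alone, and that of 1700030K09Rik at chr8:72460029-72461001 in the 3 5×FAD mice alone. The same stretch of genome therefore held a listed peak in all 6 mice, on one strand in WT and on the other in 5×FAD. The start codon exon of Zc3h6, opposite to the WT region of Gm10762, likewise had a peak in 5×FAD mice 1 and 2, at 12.88 and 14.31. In all, 19 of the 3717 regions overlapped a listed region on the opposite strand. Listing under another label was also rare: of the regions not listed in a mouse, 0.674% to 1.96% overlapped a peak of another label on the same strand there, and 0.176% to 0.489% a peak on the opposite strand. Of the 57 regions, 3 had such a peak in a WT mouse.

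The microglial and immune list showed both directions. Of its 34 genes, 13 had a stop codon exon region. Of their 14 regions, 5 were in 5×FAD only (35.7%, against 15.4% of all stop codon exon regions) and 2 in WT only (14.3%, against 6.32%). The 2 that were listed in the 3 5×FAD mice alone lay on H2-Ab1, a chain of class II MHC (6.56, 4.54 and 15.12), and Csf3r, the receptor for a granulocyte growth factor (7.58, 10.88 and 16.13). The other 5×FAD-only regions, on Unc93b1, which carries Toll-like receptors to endosomes, Tmem119, a microglial membrane protein, and Irf8, a transcription factor of myeloid cells, were listed in 5×FAD mice 1 and 2, at 8.68 and 8.42, 2.82 and 3.3, and 4.86 and 4.44. The WT-only regions lay on C1qb, a complement chain, at 5.89 and 4.57 in WT mice 1 and 2, and on Cd74, the class II invariant chain, at 5.55 and 5.14 in the same mice. The Cd74 region was also listed in 5×FAD mouse 1, at 23.44. The number of microglial and immune genes with a peak of any label also differed between the genotypes, as given above, and its part in these values was not tested. In bulk tissue, more cells of a type and more captured RNA per cell cannot be told apart.

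Fold enrichment was tested with limma in the 1018 stop codon exon regions of both genotypes, within a fit of all 5519 regions found in at least 2 of 3 mice of each. No region passed an adjusted p of 0.05 (0% of all regions). At an unadjusted p under 0.05, 5 stop codon exon regions were higher and 1 was lower in 5×FAD (0.491% and 0.0982%, against 0.544% and 0.0362% of all 5519). Without 5×FAD mouse 3 these were 13 and 1 (1.28% and 0.0982%, against 1.03% and 0.0544%). Without any other mouse they were 1 to 3 and 0 to 1, against 6 to 10 and 1 to 2 of all 5519. With the replicate number as a block they were 19 and 1 (1.87% and 0.0982%, against 2.01% and 0.0362%), again with none past the adjusted threshold. With regions in 2 of 3 mice of either genotype tested, 100 of 1824 were higher and 7 lower (5.48% and 0.384%, against 4.59% and 0.569% of all 10020). With regions in any 3 of the 6 mice, 99 of 1546 were higher and 7 lower (6.40% and 0.453%, against 5.38% and 0.665%), and with no filter 102 and 6 of 3717 (2.74% and 0.161%, against 2.19% and 0.307%). These wider filters admit regions listed in one genotype alone. The genotypes did not overlap in 187 regions that were higher and 2 that were lower in 5×FAD (18.4% and 0.196%, against 16.9% and 0.199% of all regions). Without 5×FAD mouse 1, 2 or 3 the higher ones numbered 311, 338 and 333, against 1583, 1776 and 1703 of all 5519. The lower ones numbered 18 without WT mouse 3 and 5 to 7 without any other mouse, against 102 and 39 to 58 of all 5519. On one scale this turned to 18 higher and 69 lower (1.77% and 6.78%, against 2.01% and 6.76%). The median log2 difference of the stop codon exon regions was 0.34, and 0.33 over all regions, and on one scale both medians moved to -0.07 and -0.09. In the 312 regions of all 6 mice the median fold enrichment was 10.16, 9.49 and 7.85 in WT and 12.36, 11.29 and 17.59 in 5×FAD, and on one scale 11.43, 11.26 and 11.15 against 10.74, 10.37 and 11.64. Absence of a call does not show that the genotypes were alike.

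The region with the smallest p, higher in 5×FAD, was on Fyb, an adaptor protein of immune cells. It had fold enrichments of 4.03, 4.11 and 0 in WT mice, against 27.7, 21.58 and 36.02 in 5×FAD mice (log2 difference 3.29 ± 0.78 SE, limma adjusted p = 0.9995). It kept its direction on one scale, at a log2 difference of 2.88, and lay in a retained intron exon at chr15:6619594-6620214. Zfhx3, a transcription factor with homeodomains, stood at 12.44, 12.97 and 9.89 against 25.03, 25.1 and 40.98, and Otx1, a forebrain homeobox factor, at 6.89, 6.01 and 6.28 against 14.34, 12.2 and 17.49. Gltscr1, a chromatin remodelling subunit, stood at 17.04, 18.82 and 24.35 against 45.43, 41.96 and 37.12. The adhesion protein Lpp, whose region also lay in a retained intron exon, stood at 9.9, 8.56 and 8.85 against 19.09, 15.98 and 39.68, and Mlph, which links vesicles to myosin, at 8.4, 9.18 and 7.85 against 16.28, 17.36 and 17.76. The unadjusted p was under 0.05 in all of them but Mlph, where it was 0.05348. These 6 regions were picked by smallest p among tested regions in which every 5×FAD mouse was above every WT mouse, so that order is no result. The direction held on one scale (log2 differences 0.37 to 2.88), with limma adjusted p = 0.9995 for each as deposited.

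Only 2 tested regions had every 5×FAD mouse below every WT mouse as deposited. Dnm2 encodes dynamin 2, the GTPase that cuts endocytic vesicles from the membrane, and its region at chr9:21506333-21507146 had fold enrichments of 29.5, 24 and 17.42 in WT mice, against 5.94, 4.96 and 9.71 in 5×FAD mice. All WT mice were well above all 5×FAD mice (log2 difference -1.66 ± 0.47 SE, limma adjusted p = 0.9995), and on one scale the difference was -2.22. Rps26, a ribosomal protein, stood at 4.11, 4.26 and 3.08 against 3.03, 2.89 and 0. Ribosomal protein genes have many near-identical copies in the genome, so the Rps26 values are uncertain.

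Many genes of synaptic function carried a stop codon exon region, which is given here as counts without a test. Over all 7598 mRNAs with a listed peak, 44.1% had such a region. In the list of presynaptic release and vesicle cycle genes it was 20 of 37 with any peak, in glutamate receptors and the postsynaptic density 20 of 36, in voltage-gated and potassium channels 23 of 35, and in inhibitory transmission 9 of 12. Regions tested with limma numbered 7, 5, 8 and 2 in these lists, of which 7, 4, 7 and 2 were higher in 5×FAD as deposited and 5, 2, 4 and 1 on one scale. None passed the adjusted threshold, against 0% of all regions, and none had an unadjusted p under 0.05. The median log2 differences were 0.68, 0.34, 0.48 and 0.26, beside 0.33 over all tested regions, and 0.12, -0.11, -0.01 and -0.07 on one scale, beside -0.09. Stop codon exon regions were not particular to synaptic genes. In the other lists, from 6 of 19 (ubiquitin and proteostasis) to 8 of 10 (vascular) genes with any peak carried one.

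Single members differed in how many mice listed them. Vamp2, the vesicle SNARE, was listed in every mouse, at 14.76, 13.34 and 8.92 in WT mice, against 17.33, 16.85 and 49.64 in 5×FAD mice, and so was Cplx1, a complexin that clamps vesicle fusion, at 10.57, 8.54 and 6.56 against 13.54, 11.51 and 18.05. Cplx2, its close relative, was listed in the mice numbered 1 and 2 alone, at 27.53 and 23.45 in WT mice, against 31.55 and 33.66 in 5×FAD mice. Grin2d, an NMDA receptor subunit, stood at 28.4, 25.63 and 21.27 against 32.08, 29.09 and 21.71 as deposited, with overlapping genotypes. On one scale it was 31.9, 30.4 and 30.2 against 27.9, 26.7 and 14.4, with every 5×FAD mouse below every WT mouse. Among the channel genes Hcn2, a pacemaker channel, stood at 35.35, 25.63 and 17.32 against 60.93, 41.3 and 29.93. Scn8a, a neuronal sodium channel, was listed in every mouse at 13.79, 12.42 and 9.08 against 14.21, 14.74 and 29.3. Hcn2 had an unadjusted p of 0.03681 with the replicate block (limma adjusted p = 0.6623) and 0.2064 without it (adjusted p = 0.9995).

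The genes singled out in the study were mostly without a stop codon exon region. None was listed on Map2, Dnajc6 or Nat10 in any mouse. Grin1, the obligatory NMDA receptor subunit, had 2 regions, at 24.34 and 17.97 in 5×FAD mice 1 and 2 and at 21.12 in 5×FAD mouse 2, none of them in WT. Both lay in exons of noncoding transcripts of the gene and held no annotated stop codon. App was listed in 5×FAD mouse 3 only, at 35.28, and Thy1 in WT mouse 2 only, at 4.86. Of 22 genes of the amyloid precursor family and its processing, 17 had any peak and 10 a stop codon exon region, but no region was found in at least 2 mice of both genotypes. Apba2, an adaptor that binds APP, was listed in WT mouse 1 at 11.95 and in 5×FAD mice 1 and 2 at 15.85 and 17.83. Of 12 genes of the ac4C machinery and of acetyl-CoA supply, 4 had any peak and 2 a stop codon exon region. Slc25a1, the mitochondrial citrate carrier, was listed at 4.17 in WT mouse 2 and at 7.23, 4.41 and 7.95 in 5×FAD.

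Regulators of transcription, chromatin and RNA carried such regions as well. Of the chromatin and transcription list 22 of 38 genes with any peak had a stop codon exon region, of the RNA processing and translation list 23 of 33, of axon guidance and adhesion 24 of 38, and of the cytoskeleton and motor list 19 of 35. Among the regions of the chromatin list, 8 were in 5×FAD only and 0 in WT only, of 27. These numbers were 6 and 1 of 28 for RNA processing, 5 and 3 of 33 for axon guidance, and 1 and 0 of 19 for the cytoskeleton list. Over all stop codon exon regions they were 571 and 235 of 3717 (15.4% and 6.32%). The 8 of the chromatin list included the histone demethylase Kdm6b (18.51 and 14.26 in 5×FAD mice 1 and 2, and 10.67 in WT mouse 3) and the DNA demethylase Tet3 (27.24 and 16.27 in 5×FAD mice 1 and 2, and 18.98 in WT mouse 2). Both had thus also been listed in 1 WT mouse. Arid1b, a chromatin remodelling subunit, had fold enrichments of 26.09, 28.85 and 22.9 in WT mice, against 24.32, 31.95 and 84.57 in 5×FAD mice in a retained intron exon.

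The remaining lists had 5 to 13 stop codon exon regions each. Of the genes with any peak, 6 of 19 had a stop codon exon region in the Alzheimer disease risk and lipid transport list, 6 of 19 in the ubiquitin and proteostasis list, 5 of 10 among astrocyte genes, 10 of 16 among oligodendrocyte and myelin genes, and 8 of 10 among vascular genes. One of the 4 regions of Lrp1, a receptor for apolipoprotein E, had fold enrichments of 4.35, 3.98 and 0 in WT mice, against 4.91, 4.11 and 0 in 5×FAD mice, again alike by replicate number. Eng, the endothelial coreceptor endoglin, was higher in each 5×FAD mouse as deposited, at 12.94, 12.02 and 6.24 against 16.31, 14.08 and 22.97 (log2 difference 0.75 ± 0.49 SE, limma adjusted p = 0.9995). On one scale its genotypes overlapped, at 14.6, 14.3 and 8.86 against 14.2, 12.9 and 15.2. Psmd1, a proteasome subunit, stood at 8.64, 7.85 and 7.27 against 9.94, 8.35 and 10.82, with overlapping genotypes.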

How the data were processed

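acRIP-seq was performed on hippocampi of 3 WT and 3 5×FAD mice at 6 months of age, with anti-ac4C, input and IgG libraries of each mouse from a strand-preserving kit. Groups and replicate numbers are those of the sample titles. As the labels and methods describe, the authors used FastQC, cutadapt 1.9.3 for trimming and HISAT2 2.04 for alignment to mm10, and MACS called the peaks of each mouse separately, not on pooled samples. Peaks that overlapped IgG peaks were dropped. The deposited fold enrichment is a ratio of capture to input, and although the methods subtract IgG, it is unknown whether that was done in these values. The deposited score, minus 10 times the log10 p-value of MACS, was at least 40, which is a p-value of 0.0001. The deposited FDR is in percent and was not used as a filter. The tables hold no read counts, so depth is unknown and precision rests on the spread over the mice. The labels give replicate numbers and no more, so p-values measure the spread between these samples.

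All listed stop codon exon peaks were kept. Peaks of a label were merged where they overlapped by at least 1 bp, and each region took the highest peak that a mouse had in it. Stop codons came from GENCODE M21 and RefSeq annotation of GRCm38, which is mm10, and all sequences from the RefSeq genome of that build. A region counted as within an exon where 90% of it lay in 1 exon. Values per mouse were compared with exact two-sided permutation tests and labels within mice with exact sign-flip tests. For regions of all labels, log2(fold enrichment + 1), 0 where unlisted, was tested with limma 3.58.1 (R 4.3.3), with Benjamini-Hochberg adjustment over 5519 regions, a script tested on simulated data. A log2 difference is on that scale and understates changes of weak regions. For one scale, 2028 mRNAs with a peak in all 6 mice set the factors, from 0.662 to 1.42. Same-numbered mice were paired only in the fits with the replicate block. The other limma fits, the permutation tests between genotypes and the sign-flip tests did not pair them. The smallest adjusted p of a stop codon exon region was 0.9995 in the main fit and 0.6623 with the block added. The block was tried since deviations of same-numbered mice from their group means correlated at 0.78, 0.75 and 0.61 over the tested regions. Deviations of other pairs correlated at -0.41 to -0.28. In the 1711 regions of any label listed in all 6 mice the correlations of same-numbered mice were 0.09, -0.02 and -0.01. The pairing thus lies in which regions were listed. Where nothing says that mice of a number share a litter or day, the source of the pairing is the data alone.

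The members, gene lists and rules were chosen with earlier results of these data known. Named regions were the 10 highest in all 6 mice, the 6 per direction with the smallest p among those without overlap, the 6 per direction with the highest mean among those of 3 mice against 0, 7 key genes and up to 4 members of each of 16 gene lists, of which examples are given. Regions named outside that rule, after their values were seen, are the second regions of Myrf and Dpp6, Kdm6b, Tet3 and members of the microglial and immune list. Alternatives were limits on fold enrichment and score, equal numbers of peaks, overlap, scaling, pseudocount, filters, the replicate block and leaving out each mouse. Python 3.11.15, numpy 2.4.6, pandas 2.3.3, scipy 1.17.1 and pysam 0.24.0 were used. Results of some items are not reported here.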

Additional observations from a re-analysis of the deposited data

How the results depend on the processing

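Limma called 0 stop codon exon regions in every setting tried, namely 3 other scalings, a pseudocount of 0.1, 3 other filters, the mean of the peaks, the replicate block (alone, on one scale and with a wider filter) and each mouse left out. The lowest adjusted p among them was 0.05687, with regions in 3 of 6 mice. The paired fit with the replicate block called 0 as well and changed no other call. At an unadjusted p under 0.05 it gave 19 regions higher in 5×FAD and 1 lower, against 5 and 1 without it (1.87% of stop codon exon regions higher, and 2.01% of all regions). The filter on regions in 2 of 3 mice of either genotype gave 100 and 7 (5.48% and 0.384%, against 4.59% and 0.569% of all regions), 3 of 6 mice 99 and 7, and no filter 102 and 6. A pseudocount of 0.1 gave 2 higher, and one scale and centring on the median gave 1 each, against 13, 2 and 2 of all 5519 regions.

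The median fold enrichment of stop codon exon peaks reversed on one scale, from 2.40 to -1.49 (5×FAD minus WT), as did that of the regions in all 6 mice (4.58 to -0.36). The cytosine difference from internal coding exon peaks turned from -0.52 to 1.66 points with 100 bases each side of the stop codon. That setting covered regions with an annotated stop codon alone. Requiring 3 of 3 mice gave 312 regions of both genotypes, 127 of WT only and 233 of 5×FAD only, and taking the 7434 top peaks of each mouse gave 363 of 5×FAD only. Counts of 3 mice against 0 under that setting, chosen after seeing the data, were 30 for 5×FAD and 9 for WT, against 57 and 5. With each mouse left out, regions of both genotypes numbered 562 to 733, of WT only 80 to 691 and of 5×FAD only 242 to 1024. The ratio to internal coding exon peaks was 1.117 to 1.127, with p = 0.0625 each time by the exact sign-flip test, the smallest 5 mice allow. The difference in share was 1.00 to 2.10 points, in number 352.7 to 506.2 peaks (174 with the 7434 top peaks), and in median fold enrichment 0.48 to 3.41. The block on one scale and with a wider filter was also added later. A share that counted annotated stop codons alone, added likewise, differed by 1.58 points. Regions without overlap between genotypes, 187 higher and 2 lower, became 18 and 69 on one scale and 195 to 338 and 5 to 18 with a mouse left out. Over all 5519 regions the same counts were 933 and 11, then 111 and 373 on one scale, and 967 to 1776 and 39 to 102 with a mouse left out. Since depth is unknown, an unlisted region cannot be told from one too shallow to call.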
